A study of Homo sapiens with 9 samples.

Results

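Glutathione and NADPH genes that NRF2 is known to switch on were followed in H1650 cells, an established human non-small cell lung cancer line, after knockdown of hMENA, the actin regulator encoded by ENAH. The members are 9 genes matched by symbol in the deposited expression table: SLC7A11, GCLC, GCLM, NQO1, TXNRD1, SRXN1, HMOX1, PGD and ME1. They are 9 of the 16630 genes in the table, and all 9 passed the filter on low values that left 13273 genes for testing. There were 3 groups of 3 libraries, labelled as biological replicates, collected on day 3. The siMENA cells received 20 nM of an siRNA pool directed at all ENAH transcripts (siGENOME SMARTpool). The siMENA11a cells received 20 nM of a mix of siRNAs directed at exon 11a, the alternative exon that marks the hMENA11a isoform. The control cells received 20 nM of a non-targeting pool (ON-TARGETplus), and all 3 groups were transfected with Lipofectamine RNAiMAX. The target and the siRNA reagent changed together between groups. Effects of losing ENAH transcripts and effects of the reagents or of unintended targets therefore cannot be told apart in any comparison. Whether replicates were separate transfections on separate days is not stated, so p-values measure only the spread between these libraries, in a single cell line. Values are FPKM (sequenced fragments scaled for transcript length and for the mapped fragments of the library).

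NRF2, encoded by NFE2L2, is a transcription factor that KEAP1 holds in the cytoplasm and hands to a ubiquitin ligase for destruction. Oxidants and electrophiles modify KEAP1, NRF2 accumulates, pairs with a small MAF protein and binds antioxidant response elements in DNA, where BACH1 competes with it as a repressor. Its targets import cystine and build glutathione, supply NADPH, detoxify quinones, recycle thioredoxin and break down heme. In lung adenocarcinoma the pathway is best known for mutations of KEAP1 or NFE2L2 that leave it constantly on.

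ENAH checked the labels. It measured 4.43, 5.79 and 5.57 FPKM in siMENA libraries, 9.98, 11.0 and 10.3 FPKM in siMENA11a libraries, and 26.1, 30.04 and 26.1 FPKM in control libraries. The groups did not overlap, and the means in siMENA and siMENA11a cells were 19.2% and 38.1% of the control mean (exact two-sided permutation p = 0.1 for each, the smallest that 3 libraries against 3 allow). The table is summed by gene, so the share of transcripts that carry exon 11a was not measured. FPKM summed to 558754 to 592930 per library, and the read depth of each library is unknown. Epithelial lung carcinoma markers (8 of the 10 listed are in the table) summed to 4699 to 4900 FPKM in siMENA, 3952 to 4451 FPKM in siMENA11a and 4828 to 5147 FPKM in control libraries. Most of the sum came from KRT8, KRT18 and KRT19 (means 1446, 1173 and 1226 FPKM). The lung-lineage markers NKX2-1 and NAPSA were absent, and SFTPB averaged 0.19 FPKM. Of 7 epithelial markers tested, KRT8, KRT18 and CDH1 were lower in siMENA11a than in control cells and none was higher (11.3% and 8.16% of all genes). No fibroblast or endothelial marker averaged 1 FPKM over the 9 libraries. COL3A1, a fibroblast marker, reached 3.22, 1.90 and 2.24 FPKM in replicate 2 of siMENA, siMENA11a and control, and stayed below 1 FPKM in the other libraries. The leukocyte markers in the table summed to 13.7 to 17.2 FPKM in siMENA, 15.2 to 20.7 FPKM in siMENA11a and 14.9 to 19.8 FPKM in control libraries, mostly from CD68 and CD14, which averaged 11.9 and 4.12 FPKM over all libraries. In bulk RNA, fewer cells that express a gene and less RNA per cell cannot be told apart.

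The core of the antioxidant response element, TGACNNNGC on either strand, was looked up in RefSeq promoter windows (GRCh38.p14, 250 bases before to 50 after each start), to show the sequence through which NRF2 is known to act. Of 27305 genes with a window, 16.06% hold it in at least 1 window (13.35% of 35116 windows). Of the 9 members, 7 had a window, and 4 of these hold the core: GCLM, ME1, PGD and TXNRD1. The windows of GCLC, NQO1 and SRXN1 do not hold these letters. DNA outside the windows was not searched, so an element farther from the start would be missed. KEAP1 holds the core at 2 places. Each match is printed below on the gene's own strand, 5′ to 3′, with the core in capitals and 20 bases on either side.
GCLM, chr1:93909436-93909484, minus strand: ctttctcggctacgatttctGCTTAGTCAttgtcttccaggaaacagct
ME1, chr6:83431160-83431208, minus strand: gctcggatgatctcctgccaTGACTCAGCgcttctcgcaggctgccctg
ME1, chr6:83431012-83431060, minus strand: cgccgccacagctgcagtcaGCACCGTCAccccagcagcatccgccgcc
PGD, chr1:10398843-10398891, plus strand: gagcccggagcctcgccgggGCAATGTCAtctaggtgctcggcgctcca
TXNRD1, chr12:104215660-104215708, plus strand: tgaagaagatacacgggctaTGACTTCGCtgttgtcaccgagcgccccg
TXNRD1, chr12:104215751-104215799, plus strand: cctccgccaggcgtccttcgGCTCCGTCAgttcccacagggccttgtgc
TXNRD1, chr12:104286910-104286958, plus strand: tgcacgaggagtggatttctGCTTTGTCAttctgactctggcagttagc
KEAP1, chr19:10502774-10502822, minus strand: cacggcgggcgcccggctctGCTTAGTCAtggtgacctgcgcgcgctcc
KEAP1, chr19:10502797-10502845, minus strand: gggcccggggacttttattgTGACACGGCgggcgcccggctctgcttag
The GCLM match and the first KEAP1 match share the same 9 letters and lie 26 and 23 bases before the RefSeq start of their window, which can differ from the GENCODE gene ends given for the members. A match is a description of the letters and not a measured binding site.

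In siMENA11a cells, 5 of the 9 members were higher than in control cells and none was lower. These were SLC7A11, GCLC, GCLM, NQO1 and PGD (limma on log2(FPKM + 1), adjusted p under 0.05 over all genes tested). Over all genes, 19.5% were called in this comparison, 8.16% higher and 11.3% lower. The median log2 fold change of the members was 0.28, and that of all genes tested was -0.01. In 7 of the 9 members every siMENA11a library lay above every control library, against 16.6% of all genes, and HMOX1 and SRXN1 overlapped with control.

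In siMENA cells, 2 of the 9 members, NQO1 and HMOX1, were higher than in control cells, and none was lower. Over all genes, 18.6% were called, 10.3% higher and 8.24% lower. The median of the members was -0.04 and that of all genes was 0.04. Every siMENA library lay above every control library in 3 members (GCLC, NQO1 and HMOX1) and below in 1 (SLC7A11), against 23.8% and 16.3% of all genes. The 2 knockdowns share the control libraries, so their values are given side by side and were compared with each other directly. In siMENA11a against siMENA cells, SLC7A11, GCLC, GCLM, PGD and ME1 were higher and HMOX1 was lower, while 36.6% of all genes were called, 14.4% higher and 22.2% lower. Every siMENA11a library lay above every siMENA library in 6 members and below in 1, against 19.2% and 28.6% of all genes. Across the 3 groups, 6 of the 9 members passed limma's F test, as did 40.3% of all genes. With another scaling of the libraries (median ratio), the share of called genes that were higher moved to 43.8% from 55.6% in siMENA against control, and to 49.9% from 39.4% in siMENA11a against siMENA.

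**Figure D1:**
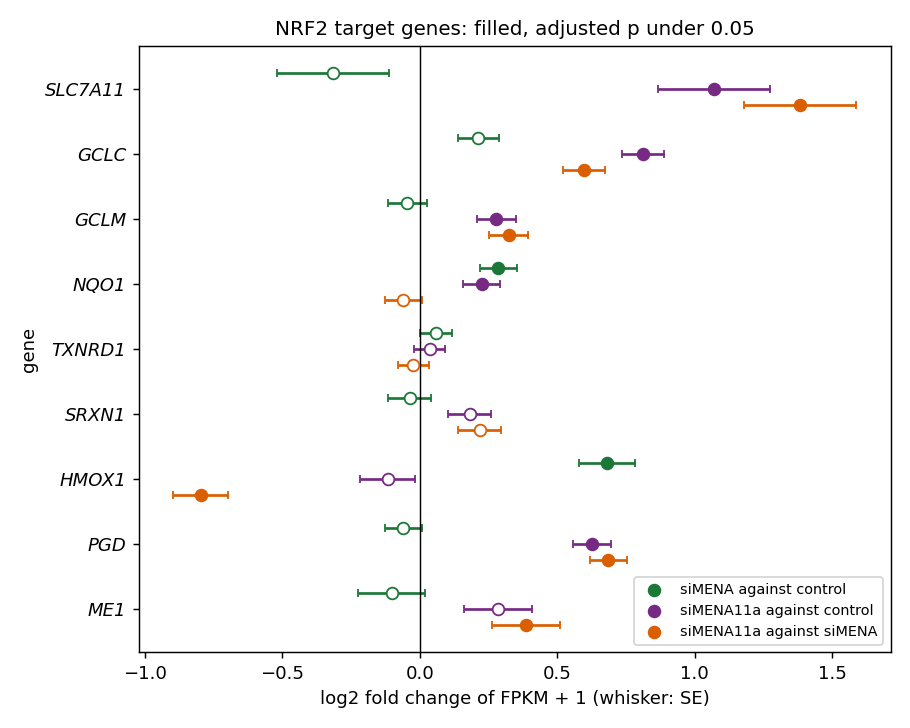
Log2 fold change of FPKM + 1 (horizontal axis) of each of the 9 members (vertical axis) in the 3 comparisons, with whiskers for the SE and filled points for an adjusted p under 0.05. SLC7A11, GCLC, GCLM and PGD lie to the right in both siMENA11a comparisons, while HMOX1 lies to the right in siMENA against control and to the left in siMENA11a against siMENA.

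In control cells the levels, scaled for length, ran from NQO1 at 368.6 FPKM and TXNRD1 at 175.3 FPKM through PGD at 51.2 FPKM to HMOX1, GCLM and SRXN1 at 24.2, 23.0 and 21.1 FPKM. Below these came SLC7A11 at 8.70, ME1 at 8.12 and GCLC at 5.91 FPKM. HMOX1, GCLM and SRXN1 overlapped each other between libraries, as did SLC7A11 and ME1, and the other neighbours in this order did not. In siMENA11a cells SLC7A11 averaged 19.98 FPKM and overlapped with HMOX1, GCLM and SRXN1.

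Glutathione synthesis begins with cystine import by SLC7A11, the transporter subunit of the system that exchanges cystine for glutamate. SLC7A11 (GRCh38 chr4:138164097-138242349, minus strand) measured 7.08, 6.75 and 6.39 FPKM in siMENA libraries, 14.6, 28.5 and 16.9 FPKM in siMENA11a libraries, and 7.18, 10.3 and 8.60 FPKM in control libraries. Every siMENA11a library lay above every other library, and siMENA11a replicate 2 stood well above the others. The mean was 19.98 ± 7.44 FPKM in siMENA11a cells and 8.70 ± 1.57 FPKM in control cells (SD, n = 3 each), a ratio of 2.30 and the largest among the members. The log2 fold change was 1.07 (SE 0.20, limma adjusted p = 0.00639) against control and 1.38 (SE 0.20, limma adjusted p = 0.000701) against siMENA. Without siMENA11a replicate 2 these were 0.80 (limma adjusted p = 0.00416) and 1.11 (limma adjusted p = 0.000296). In siMENA against control cells the difference of -0.31 (SE 0.20) did not pass (limma adjusted p = 0.312), and it was -0.20 without control replicate 2.

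GCLC encodes the catalytic subunit of glutamate-cysteine ligase, the rate-limiting enzyme of glutathione synthesis. GCLC (GRCh38 chr6:53497341-53616970, minus strand) measured 6.97, 6.999 and 7.002 FPKM in siMENA libraries, 11.0, 11.8 and 10.5 FPKM in siMENA11a libraries, and 6.62, 5.57 and 5.54 FPKM in control libraries. The 3 groups did not overlap, with siMENA11a highest and control lowest. GCLC averaged 188% of control in siMENA11a cells, with log2 fold changes of 0.81 (SE 0.08, limma adjusted p = 0.00016) against control and 0.60 (SE 0.08, limma adjusted p = 0.00029) against siMENA. In siMENA cells the difference of 0.21 (SE 0.08) from control did not pass (limma adjusted p = 0.0772), although it did without control replicate 1 (limma adjusted p = 0.0339).

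GCLM encodes the modifier subunit that makes the ligase more active. GCLM (GRCh38 chr1:93885205-93909456, minus strand) measured 23.0, 21.3 and 22.3 FPKM in siMENA libraries, 26.4, 31.3 and 26.6 FPKM in siMENA11a libraries, and 22.03, 23.6 and 23.2 FPKM in control libraries. The siMENA11a libraries lay above all others, by less than those of GCLC did. The log2 fold change in siMENA11a cells was 0.28 (SE 0.07, limma adjusted p = 0.022) against control and 0.32 (SE 0.07, limma adjusted p = 0.00575) against siMENA. The call against control was lost without control replicate 1 (limma adjusted p = 0.0714) or control replicate 3 (limma adjusted p = 0.0599).

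**Figure D2:**
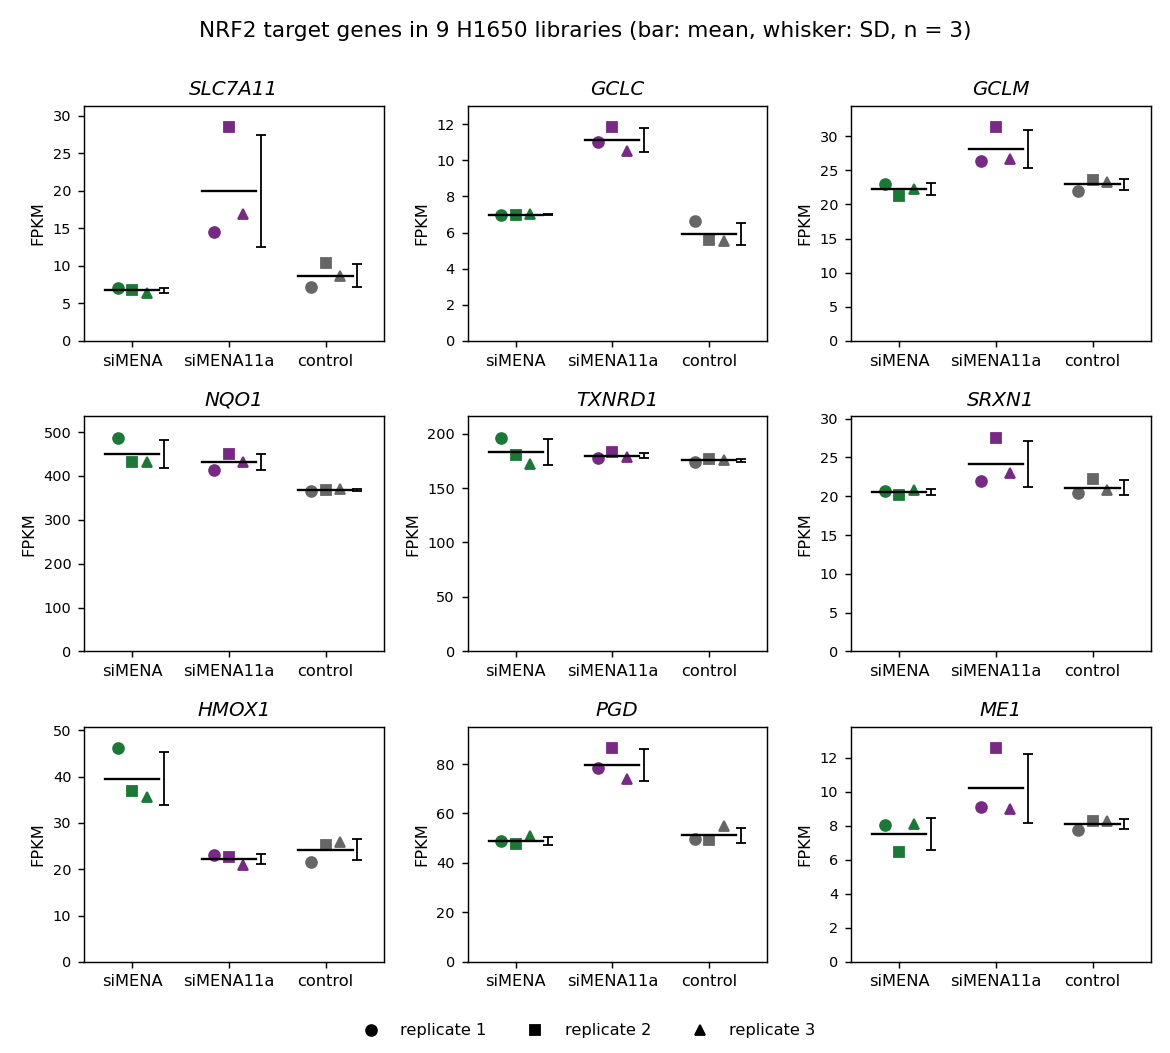
FPKM (vertical axes, from 0) of the 9 members in siMENA, siMENA11a and control libraries, with a symbol for each replicate, a bar for the mean and a whisker for the SD (n = 3). SLC7A11, GCLC and PGD are highest in all siMENA11a libraries, HMOX1 is highest in all siMENA libraries, and TXNRD1 stays between 172.1 and 196.1 FPKM throughout.

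Among 26 other glutathione genes tested, 8 were higher and 2 lower in siMENA11a than in control cells (8.16% and 11.3% of all genes). In siMENA cells 4 were higher and 4 lower (10.3% and 8.24% of all genes). Their medians on the log2 scale were 0.16 in siMENA11a and 0.05 in siMENA cells. GSR, the NADPH-dependent enzyme that regenerates reduced glutathione, averaged 38.0 ± 2.8 FPKM in siMENA, 49.7 ± 4.2 FPKM in siMENA11a and 39.6 ± 2.6 FPKM in control cells. Its log2 fold change in siMENA11a cells was 0.32 (limma adjusted p = 0.0189), a call lost without control replicate 1 (limma adjusted p = 0.0597) or control replicate 3 (limma adjusted p = 0.0725). ABCC3, an exporter of glutathione and glucuronide conjugates, was higher by 0.59 (limma adjusted p = 0.00231) in siMENA11a cells. MGST2, a microsomal glutathione S-transferase, was higher there by 0.57 (limma adjusted p = 0.00129). In siMENA cells MGST2 was lower by 0.26 (limma adjusted p = 0.0485), a call lost without siMENA replicate 1 (limma adjusted p = 0.157), among other single libraries. GPX1, a selenium-dependent peroxidase, averaged 193.8 ± 10.6 FPKM in siMENA, 371.1 ± 33.6 FPKM in siMENA11a and 337.1 ± 24.7 FPKM in control cells, and fell by 0.79 on the log2 scale in siMENA cells (limma adjusted p = 0.000302). GLO1, the glyoxalase that uses glutathione to clear methylglyoxal, averaged 79.7 ± 3.0 FPKM in siMENA, 43.0 ± 4.2 FPKM in siMENA11a and 59.4 ± 1.5 FPKM in control cells, so it was higher under siMENA (0.42, limma adjusted p = 0.00348) and lower under siMENA11a (-0.46, limma adjusted p = 0.00196). CHAC2, which degrades glutathione, was higher in both, by 0.65 in siMENA (limma adjusted p = 0.0016) and 0.47 in siMENA11a cells (limma adjusted p = 0.0076).

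PGD encodes 6-phosphogluconate dehydrogenase, which makes NADPH in the oxidative pentose phosphate pathway. PGD (GRCh38 chr1:10398592-10420144, plus strand) measured 48.7, 47.6 and 50.8 FPKM in siMENA libraries, 78.5, 86.4 and 73.9 FPKM in siMENA11a libraries, and 49.7, 49.1 and 54.8 FPKM in control libraries. The siMENA11a libraries lay far above the rest, while siMENA and control libraries overlapped. PGD averaged 155.5% of control in siMENA11a cells, with log2 fold changes of 0.63 (SE 0.07, limma adjusted p = 0.000402) against control and 0.69 (SE 0.07, limma adjusted p = 7.24e-05) against siMENA. In siMENA against control cells it was -0.06 (SE 0.07, limma adjusted p = 0.577).

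ME1 encodes the cytosolic malic enzyme, which makes NADPH from malate. ME1 (GRCh38 chr6:83210389-83431071, minus strand) measured 8.05, 6.45 and 8.10 FPKM in siMENA libraries, 9.10, 12.6 and 8.99 FPKM in siMENA11a libraries, and 7.78, 8.30 and 8.28 FPKM in control libraries. Every siMENA11a library lay above every other, with replicate 2 far above its group. Against control the log2 fold change of 0.28 (SE 0.12) did not pass (limma adjusted p = 0.133), and it was 0.14 without siMENA11a replicate 2. Against siMENA it was 0.39 (SE 0.12, limma adjusted p = 0.0319), a call lost without siMENA11a replicate 2 (0.24, limma adjusted p = 0.072), without siMENA replicate 2 (limma adjusted p = 0.113) and in a fit of these groups alone (limma adjusted p = 0.0601).

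Of 15 other NADPH genes tested, 2 were higher and 2 lower in siMENA11a cells (8.16% and 11.3% of all genes). In siMENA cells 2 were higher and 3 lower (10.3% and 8.24% of all genes). Their medians were -0.00 in siMENA11a and -0.01 in siMENA cells. IDH1, the cytosolic NADP-dependent isocitrate dehydrogenase, was higher in siMENA11a cells, by 0.36 (limma adjusted p = 0.00138). IDH2, its mitochondrial counterpart, fell by 0.47 there (limma adjusted p = 0.000526). In siMENA cells IDH2 fell by 0.21 (limma adjusted p = 0.0228), a call lost without siMENA replicate 1 (limma adjusted p = 0.0858), among other single libraries. RPIA, of the non-oxidative branch, was higher in siMENA cells, by 0.66 (limma adjusted p = 0.00858).

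NQO1, TXNRD1 and SRXN1 act on quinones and protein thiols. NQO1 (GRCh38 chr16:69706996-69726951, minus strand), the quinone reductase used as a standard readout of NRF2, measured 486.9, 431.8 and 432.3 FPKM in siMENA libraries, 413.5, 449.4 and 431.7 FPKM in siMENA11a libraries, and 366.2, 369.0 and 370.6 FPKM in control libraries. Every library of either knockdown lay above every control library, and the knockdowns overlapped. The log2 fold change was 0.29 in siMENA cells (SE 0.07, limma adjusted p = 0.0166) and 0.23 in siMENA11a cells (SE 0.07, limma adjusted p = 0.0417). In siMENA11a against siMENA cells it was -0.06 (SE 0.07, limma adjusted p = 0.52). The siMENA call was lost without control replicate 1 (limma adjusted p = 0.0537), control replicate 3 (limma adjusted p = 0.0564) or siMENA replicate 1 (limma adjusted p = 0.0685). The siMENA11a call was lost without any one of the 3 control or the 3 siMENA11a libraries or siMENA replicate 2, with limma adjusted p up to 0.106, and in a fit of these groups alone. All 9 deposited values of NQO1 had lost their decimal point and were divided by 1000, so its level rests on that repair.

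TXNRD1, the cytosolic reductase that keeps thioredoxin reduced with NADPH, is in GRCh38 at chr12:104215779-104350305 on the plus strand. TXNRD1 measured 196.1, 180.5 and 172.1 FPKM in siMENA libraries, 177.7, 182.7 and 178.8 FPKM in siMENA11a libraries, and 174.0, 176.6 and 175.3 FPKM in control libraries, of which 8 values had the decimal point restored. The siMENA11a libraries all lay above the control libraries, by a small margin, and siMENA libraries overlapped both. The log2 fold changes were 0.06 in siMENA (SE 0.06, limma adjusted p = 0.51) and 0.04 in siMENA11a cells (SE 0.06, limma adjusted p = 0.707), so no difference was detected.

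SRXN1, sulfiredoxin, which repairs overoxidised peroxiredoxins at the cost of ATP, is in GRCh38 at chr20:646615-653370 on the minus strand. SRXN1 measured 20.7, 20.2 and 20.9 FPKM in siMENA libraries, 21.99, 27.5 and 23.0 FPKM in siMENA11a libraries, and 20.4, 22.2 and 20.8 FPKM in control libraries. The siMENA11a libraries lay above all siMENA libraries, replicate 2 by far the most, and replicate 1 overlapped with control. The log2 fold change in siMENA11a cells was 0.18 against control (limma adjusted p = 0.133) and 0.22 against siMENA (SE 0.08, limma adjusted p = 0.0515). The last comparison passed with the replicate number as a block (limma adjusted p = 0.0328) and under 4 of the other alternatives. Without siMENA11a replicate 2 it was 0.12, with limma adjusted p up to 0.127 over all alternatives, and the difference from control was 0.09.

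Of 15 other thioredoxin and peroxiredoxin genes tested, 2 were higher and 2 lower in siMENA11a cells (8.16% and 11.3% of all genes). In siMENA cells 4 were higher and none lower (10.3% and 8.24% of all genes). TXNIP, which binds and inhibits thioredoxin, averaged 63.2 ± 2.6 FPKM in siMENA, 89.8 ± 5.2 FPKM in siMENA11a and 48.2 ± 8.5 FPKM in control cells, a log2 fold change of 0.90 in siMENA11a cells (limma adjusted p = 0.000576). In siMENA cells TXNIP was higher by 0.40 (limma adjusted p = 0.0249), a call lost without control replicate 3 (limma adjusted p = 0.0916), among other single libraries. TXN, thioredoxin itself, averaged 378.9 ± 30.6 FPKM in siMENA, 325.7 ± 33.9 FPKM in siMENA11a and 292.9 ± 40.0 FPKM in control cells. Its 0.38 in siMENA cells passed (limma adjusted p = 0.0397), and was lost without control replicate 1 or 3, siMENA replicate 1 or 2, or siMENA11a replicate 1, with limma adjusted p up to 0.132.

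HMOX1 encodes heme oxygenase 1, which degrades heme to biliverdin, iron and carbon monoxide and is held down by BACH1. HMOX1 (GRCh38 chr22:35380361-35394214, plus strand) measured 46.1, 36.9 and 35.6 FPKM in siMENA libraries, 23.1, 22.6 and 21.0 FPKM in siMENA11a libraries, and 21.6, 25.2 and 25.9 FPKM in control libraries. All siMENA libraries lay above the rest, and siMENA11a and control libraries overlapped. The value of siMENA replicate 1 had its decimal point restored. HMOX1 averaged 163% of control in siMENA cells, a log2 fold change of 0.68 (SE 0.10, limma adjusted p = 0.00194). In siMENA11a cells the difference from control was -0.12 (SE 0.10, limma adjusted p = 0.459), and from siMENA cells -0.80 (SE 0.10, limma adjusted p = 0.000284). HMOX1 was the member called lower in siMENA11a than in siMENA cells, while the lower means of NQO1 and TXNRD1 there did not pass. Of the 10 other heme and iron genes, 1 was higher and 1 lower in siMENA11a cells (8.16% and 11.3% of all genes). In siMENA cells none was higher and 1 lower (10.3% and 8.24% of all genes). HMOX2, the constitutive heme oxygenase, averaged 26.002 ± 0.78 FPKM in siMENA, 15.7 ± 2.2 FPKM in siMENA11a and 23.3 ± 1.9 FPKM in control cells, and fell by 0.54 on the log2 scale in siMENA11a cells (limma adjusted p = 0.00329). FTL, ferritin light chain, was higher by 0.76 in siMENA11a cells (limma adjusted p = 0.0152), a call lost without control replicate 3 (limma adjusted p = 0.0609). In siMENA cells it was higher by 0.56, which did not pass (limma adjusted p = 0.0534) but did with the replicate number as a block (limma adjusted p = 0.0109). Without siMENA11a replicate 2, FTL differed by -0.01 between siMENA11a and siMENA cells. Reads from its many pseudogene copies could be split. TFRC, the transferrin receptor, averaged 155.9 ± 1.9 FPKM in siMENA, 232.4 ± 6.7 FPKM in siMENA11a and 232.1 ± 15.3 FPKM in control cells, and fell by 0.57 in siMENA cells (limma adjusted p = 0.000286). All 9 TFRC values had the decimal point restored, so its level rests on that repair.

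Within siMENA11a, replicate 2 had the highest value in 8 of the 9 members, HMOX1 being the exception. Over all genes tested the same library was highest of its group in 38.9%, and over the 1083 genes called higher in siMENA11a cells in 41.5%. Leaving it out left the siMENA11a calls of SLC7A11, GCLC, GCLM and PGD against control in place and ended that of NQO1 (limma adjusted p = 0.089). In control libraries replicate 2 was highest in 5 of the 9 members, and in siMENA libraries in none. Over all genes tested these shares were 42.4% and 33.1%. COL3A1 and CD14 were highest in replicate 2 of every group. The part of other cells in the members' values was not tested.

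**Figure D3:**
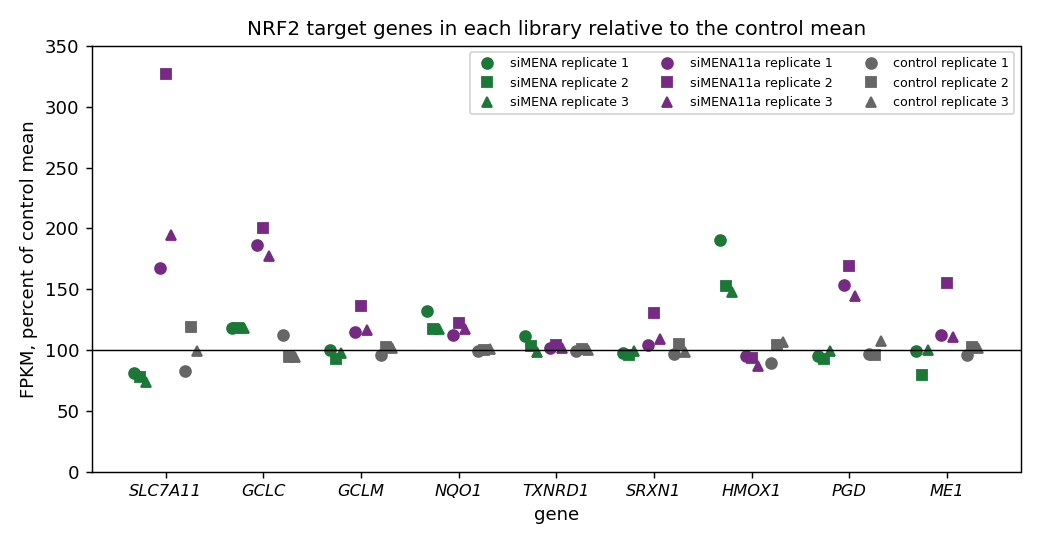
FPKM of each member in each of the 9 libraries as a percent of the control mean (vertical axis, from 0), with colours for siMENA, siMENA11a and control and symbols for replicates. The square of siMENA11a replicate 2 tops its group for all members but HMOX1, and the siMENA libraries lie above the control libraries for GCLC, NQO1 and HMOX1.

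The regulators of NRF2 were examined from a list of 12 other genes, all tested. In siMENA11a cells 5 were higher and 1 lower than in control cells (8.16% and 11.3% of all genes). In siMENA cells none was higher and 1 lower (10.3% and 8.24% of all genes). KEAP1, the inhibitor, measured 37.4, 41.7 and 37.5 FPKM in siMENA libraries, 30.8, 28.2 and 29.3 FPKM in siMENA11a libraries, and 38.1, 41.4 and 37.9 FPKM in control libraries. Every siMENA11a library lay below every other library. KEAP1 fell by 0.40 on the log2 scale against control (SE 0.06, limma adjusted p = 0.0025) and by 0.39 against siMENA (SE 0.06, limma adjusted p = 0.00114). NFE2L2, the gene of NRF2, measured 40.8, 41.2 and 45.2 FPKM in siMENA libraries, 48.1, 53.6 and 44.8 FPKM in siMENA11a libraries, and 43.2, 41.6 and 42.4 FPKM in control libraries. Its difference of 0.20 in siMENA11a cells did not pass against control (SE 0.07, limma adjusted p = 0.0734). Against siMENA the same difference passed (limma adjusted p = 0.0477), and was lost without control replicate 1, 2 or 3, siMENA replicate 1 or 2, or siMENA11a replicate 1 or 2, with limma adjusted p up to 0.144, and with the replicate number as a block (limma adjusted p = 0.056). BACH1, the repressor, measured 19.3, 19.4 and 19.4 FPKM in siMENA libraries, 32.7, 32.3 and 33.6 FPKM in siMENA11a libraries, and 25.8, 21.9 and 24.1 FPKM in control libraries. It moved in opposite directions in the knockdowns, without overlap: -0.29 in siMENA (SE 0.06, limma adjusted p = 0.0105) and 0.44 in siMENA11a cells (SE 0.06, limma adjusted p = 0.00129), and 0.73 between them (SE 0.06, limma adjusted p = 3.27e-05).

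SQSTM1, the p62 adaptor that draws KEAP1 into autophagy and is itself an NRF2 target, measured 95.1, 106.4 and 85.3 FPKM in siMENA libraries, 141.7, 198.4 and 144.9 FPKM in siMENA11a libraries, and 92.4, 102.1 and 85.7 FPKM in control libraries. It was higher in all siMENA11a libraries, by 0.77 (SE 0.13, limma adjusted p = 0.00358). MAFG, a small MAF partner of NRF2, averaged 8.999 ± 0.22 FPKM in siMENA, 11.9 ± 0.88 FPKM in siMENA11a and 9.03 ± 0.35 FPKM in control cells, a log2 fold change of 0.37 in siMENA11a cells (SE 0.07, limma adjusted p = 0.00458). The part of any of these changes in those of the members was not tested.

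**Figure D4:**
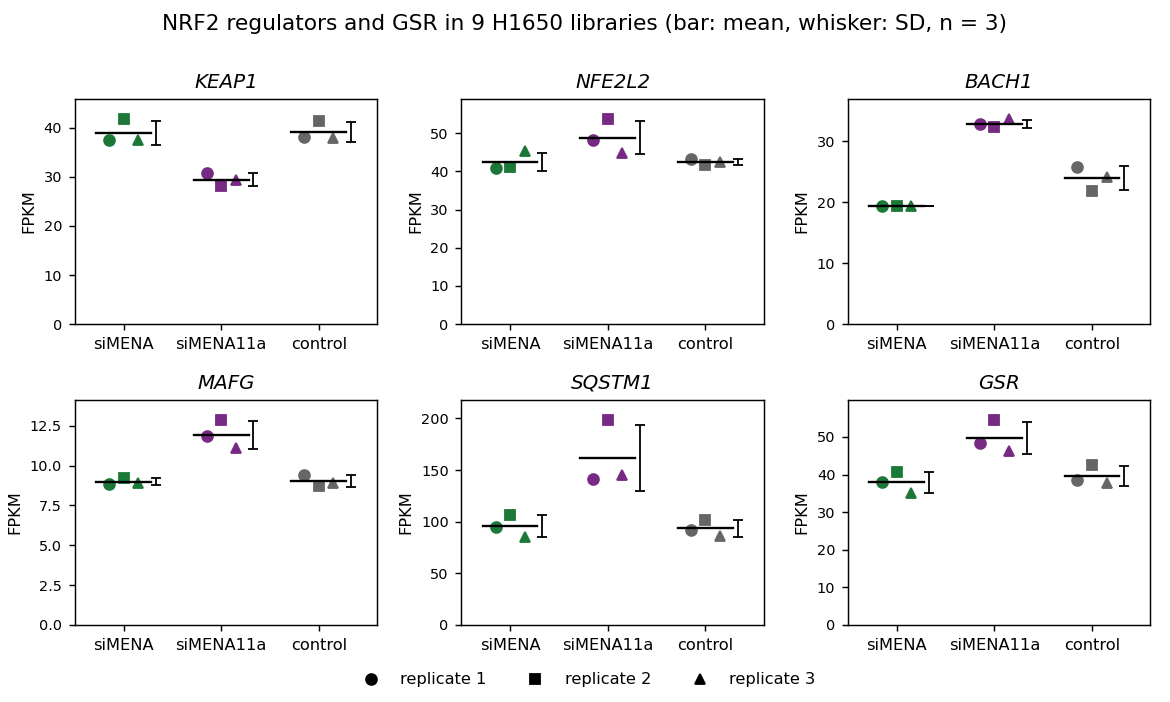
FPKM (vertical axes, from 0) of KEAP1, NFE2L2, BACH1, MAFG, SQSTM1 and the glutathione reductase gene GSR in siMENA, siMENA11a and control libraries, with a symbol for each replicate, a bar for the mean and a whisker for the SD (n = 3). KEAP1 is lowest and BACH1, MAFG, SQSTM1 and GSR are highest in the siMENA11a libraries.

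Of 16 other drug-metabolizing NRF2 targets tested (of 20 listed), 6 were higher and none lower in siMENA11a cells (8.16% and 11.3% of all genes). In siMENA cells 1 was higher and 2 lower (10.3% and 8.24% of all genes). Their medians were 0.20 in siMENA11a and -0.17 in siMENA cells, on the log2 scale. AKR1C3, an aldo-keto reductase, averaged 0.49 ± 0.07 FPKM in siMENA, 2.67 ± 0.42 FPKM in siMENA11a and 0.89 ± 0.22 FPKM in control cells, a log2 fold change of 0.96 in siMENA11a cells (limma adjusted p = 0.000686). Reads of AKR1C3 can be shared with near-identical family members, so its level is uncertain, and the added 1 FPKM understates the fold of a gene this low. CES1, a carboxylesterase, was higher by 0.58 in siMENA11a cells (limma adjusted p = 0.0166), a call lost without control replicate 3 (limma adjusted p = 0.0653). CBR3, a carbonyl reductase, fell by 0.69 in siMENA cells (limma adjusted p = 0.00849).

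**Figure D5:**
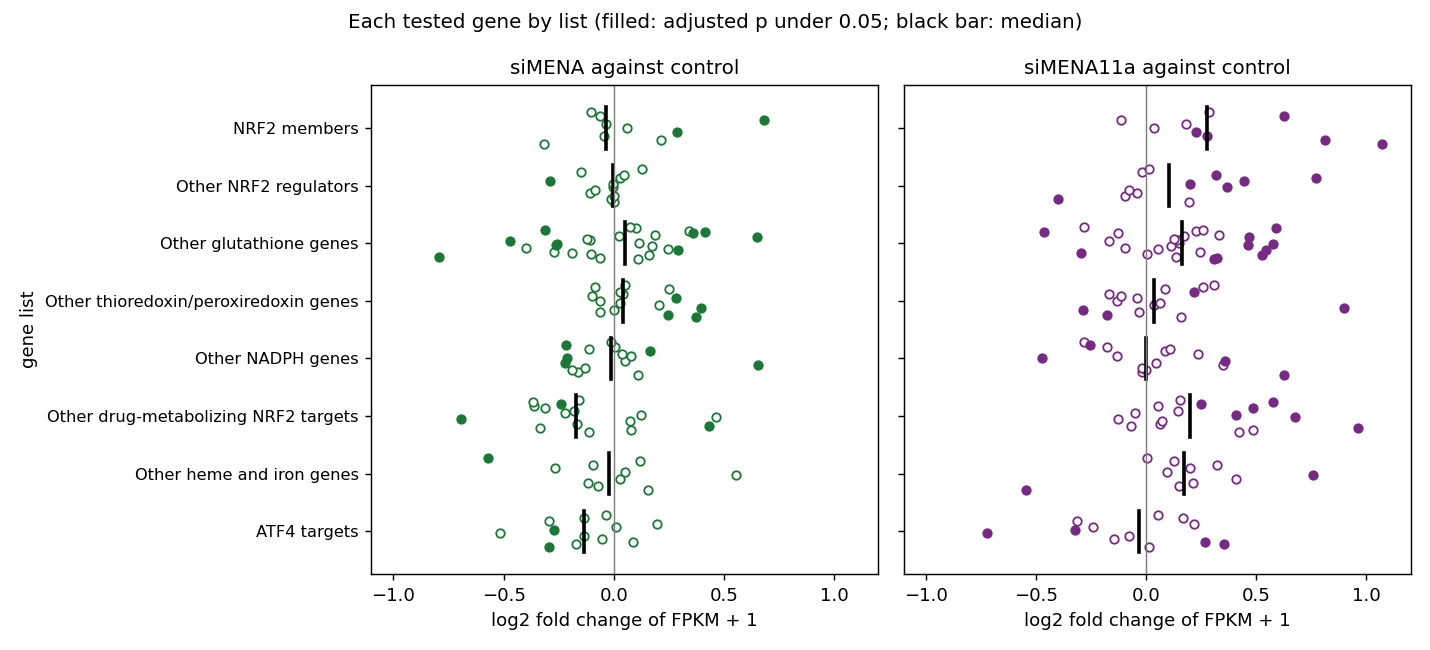
Log2 fold change of FPKM + 1 (horizontal axis) of each tested gene in the members and 7 further lists (vertical axis), in siMENA and in siMENA11a against control, with filled points for an adjusted p under 0.05 and a black bar for the median. The members' median is -0.04 in siMENA and 0.28 in siMENA11a cells, and that of the drug-metabolizing targets is -0.17 and 0.20.

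For the 6 members that passed the F test, the genes that varied most alike over the 9 libraries were found among 11933 candidates. Each gene was first centred on its own mean of log2(FPKM + 1), so the levels themselves can differ. Likeness was the root mean square difference between the centred values. SLC7A11 was closest to SDCBP2 (0.189) and UCHL1 (0.208), GCLC to XDH (0.0592) and CEBPD (0.0779), and GCLM to RIMS4 (0.0418) and SLC12A4 (0.0514). NQO1 was closest to MAP7 (0.0189) and JOSD1 (0.027), HMOX1 to CGN (0.093) and ANKRD2 (0.0998), and PGD to LIMCH1 (0.0796) and C21orf91 (0.0873). XDH averaged 14.3 ± 0.36 FPKM in siMENA, 21.8 ± 0.15 FPKM in siMENA11a and 12.7 ± 0.64 FPKM in control cells. CGN averaged 23.1 ± 0.84 FPKM in siMENA, 13.5 ± 0.96 FPKM in siMENA11a and 14.4 ± 0.58 FPKM in control cells.

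Annotated genes overlap some members on the opposite strand (SLC7A11, GCLC, NQO1, TXNRD1 and ME1) or the same strand (GCLC, TXNRD1 and SRXN1). The library kit keeps strand, but whether the counting used it is not given in the sources used here, so reads of such neighbours cannot be told apart from those of the members.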

How the data were processed

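Total RNA was ribosome-depleted (Ribo-Zero Gold), made into stranded TruSeq libraries and read from both ends (NextSeq), per the labels' protocols. The authors deposited a table of FPKM values per gene symbol, on genome build hg19 per the submitters' processing notes; no aligner, quantifier or gene annotation is named there. Of these values, 7.91% (11524 in all) are whole numbers about 1000 times above the gene's other values, as when a decimal point is lost. These were divided by 1000. For 237 genes, NQO1 and TFRC among them, no value has decimals to compare with. The repair also touched other named genes, such as TXN (8 values) and GPX1, IDH1 and ATF4 (7 values each). Another 1286 genes lacked a value in some library and were not used.

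All genes averaging 0.5 FPKM or more were tested with limma 3.58.1 (R 4.3.3) on log2(FPKM + 1) with a mean-variance trend, in 1 fit over all 9 libraries (6 residual degrees of freedom), with Benjamini-Hochberg adjustment over the 13273 genes tested in each comparison and a threshold of 0.05. The pseudocount makes log2 fold changes understate those of low genes. The step was tested on simulated data. Single values were also compared by an exact two-sided permutation test. No 2 libraries held identical values. The members and lists were chosen with earlier results of these data known. Named besides the members are ENAH, genes of the lists that passed, up to 4 per list and comparison by size of change (mostly those whose call did not rest on 1 library), NFE2L2, KEAP1, BACH1, GSR and TXN, and the 2 genes most like each member that passed the F test; a further gene of that rule is not reported here. Same-numbered siMENA and control libraries deviated together (correlations 0.124, 0.378 and 0.196), while same-numbered pairs with siMENA11a did not all pass 0.1. Replicate 2 of siMENA11a did deviate together with replicate 2 of control (0.425) and of siMENA (0.309). Pairs of a replicate 2 library with a library of another number were all negative, from -0.425 to -0.066. Some differently numbered libraries deviated together, such as control replicate 1 and siMENA11a replicate 3 (0.321). Pairing by number was therefore not established for all replicates, although the replicate 2 libraries shared a deviation. The main fit was unpaired, and the replicate number was a block only in an alternative. Promoter sequences are from RefSeq (GRCh38.p14) and gene positions from GENCODE on GRCh38.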

Additional observations from a re-analysis of the deposited data

How the results depend on the processing

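Depth per library is unknown, and 3 libraries a group limit what could pass. Over all alternatives, the calls and directions of single members were kept in 494 of 531 recomputed values, lost in 26, gained in 6 and turned in 5. Among those that turned, TXNRD1 in siMENA11a against control was -3.28 without the decimal repair, NQO1 in siMENA11a against siMENA was 0.013 with quantile normalization, and TXNRD1 in that comparison was 0.026 with median-ratio scaling, 0.020 with quantile normalization and ran to 0.028 (without siMENA replicate 1) from -0.066 (without siMENA replicate 3) when 1 library was left out. Without the repair, genes called were 543 in siMENA against control, 556 in siMENA11a against control and 1703 in siMENA11a against siMENA (2463, 2583 and 4857 with it), and members called were 0, 1 and 2 (2, 5 and 6 with it). With every gene that had a repaired value left out, genes called were 1293, 1362 and 2716. This removed NQO1, TXNRD1 and HMOX1, and so both members called in siMENA against control. That 0 of the 6 remaining members were called there therefore says nothing about the repair. No call of these 6 members changed in any of the comparisons. Leaving out 1 library at a time gave 1343 to 2903, 1500 to 2484 and 3623 to 4813 genes called, and 1 to 2, 3 to 5 and 5 to 7 members. In siMENA against control, leaving out siMENA replicate 1, siMENA replicate 2, control replicate 1 or control replicate 3 gave 1343, 1576, 1555 and 1445 genes, and without siMENA replicate 1 or control replicate 3 only 1 member was called. In siMENA11a against control, leaving out control replicate 3 gave 1500 genes, and leaving out control replicate 1 or 3 gave 3 members. With the replicate number as a block, genes called were 3149, 3431 and 5648 and members called were 2, 5 and 7, SRXN1 being gained in siMENA11a against siMENA, and the block changed no other member's call.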

Other observations

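A list of 12 genes made up of ATF4, the stress-response factor that also acts on cystine import and serine synthesis, and genes of its response was also tested. In siMENA11a cells 2 were higher and 2 lower than in control cells (8.16% and 11.3% of all genes). In siMENA cells none was higher and 2 were lower (10.3% and 8.24% of all genes). The medians of the 12 genes were -0.03 in siMENA11a and -0.13 in siMENA cells, on the log2 scale. ATF4, counted among these, fell by 0.29 in siMENA cells (limma adjusted p = 0.00463) and differed by 0.02 in siMENA11a cells (limma adjusted p = 0.87). ATF3, a stress-induced factor of the same family, was higher by 0.27 in siMENA11a cells (limma adjusted p = 0.0105). PHGDH, the first enzyme of serine synthesis, fell by 0.32 in siMENA11a cells (limma adjusted p = 0.0118) and by 0.27 in siMENA cells (limma adjusted p = 0.0247). The siMENA call was lost without siMENA replicate 1 or 3 or control replicate 2 or 3, with limma adjusted p up to 0.0857.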
